A study of Homo sapiens with 2 samples.

Results

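The 33 genes described here encode the machinery by which the endoplasmic reticulum (ER) takes in, folds and inspects proteins and sends those that fail to degradation. They were chosen by symbol, and all 33 were found among the 63677 Ensembl gene IDs of the deposited count tables. By role they fall into 7 groups: stress sensors with the transcription factor XBP1, chaperones and their cofactors, disulfide oxidoreductases, the lectin cycle of glycoproteins, the translocon, the proteins that mark glycoproteins for degradation, and the complex that moves them back to the cytosol. The study holds 2 RNA-seq libraries of MDA-MB-231, an established line of human breast cancer cells of the triple-negative type. The treated cells received Carpesium cernuum extract (CCE), a plant extract, at 1 µg/mL for 24 h by the labels. The other library is labelled as control. The text on dose and time stands on both samples, so the groups follow the treatment label, and no source used here says whether the control cells received a vehicle. Both libraries are of the same line, grown in multiwell plates.

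Secreted and membrane proteins enter the ER through the SEC61 channel. There they are bound by the HSP70 chaperone BiP (HSPA5), fitted with disulfide bonds by protein disulfide isomerases, and, when they carry N-glycans, held by calnexin and calreticulin until they are folded. Proteins that do not fold are trimmed by EDEM mannosidases, recognised by OS9, ubiquitinated by the SEL1L-SYVN1 complex and pulled into the cytosol by the ATPase VCP, a route called ER-associated degradation. When unfolded proteins accumulate, the sensors IRE1 (ERN1), PERK (EIF2AK3) and ATF6 start the unfolded protein response. ATF6 and spliced XBP1 then activate chaperone genes through a promoter sequence, the ER stress element (ERSE), which pairs a CCAAT box with the letters CCACG.

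That element is the sequence by which many of these genes are known to answer to unfolded protein, so it is shown first. The promoter windows came from RefSeq (GRCh38.p14) and run from 250 bases before to 50 bases after each annotated start, and 31 of the 33 genes had at least 1 window. Both strands were searched for ERSE, CCAAT followed by 9 free bases and CCACG, and for ERSE-II, a shorter form of ATTGG, 1 free base and CCACG. ERSE stood in windows of 7 of the 31 genes, and in 0.0769% of all 35093 windows. Here and below, members are counted as genes with a match in any window, and the shares are of single windows. ERSE-II stood in windows of 3 others, against 0.0541% of all windows. Other letters were searched on both strands as well. ERSE without its last base, CCAAT with 9 free bases and CCAC, stood in 0.316% of windows and added HERPUD1 to the 7 genes with ERSE. The core of the UPRE, TGACG followed directly by TGG, stood in 0.729% of windows and in those of HYOU1, TXNDC5 and VCP. A C/EBP-ATF response element, TGATG with 1 free base and AA, stood in 3.62% of windows and in that of HERPUD1, and the CCAAT box alone stood in 34.6% of windows and in those of 25 members. All motifs were searched, and ERSE and ERSE-II chosen for grouping, after the members' ratios were known. A match is a description of the letters and not evidence of binding. The matches are printed in the direction of the motif, with its fixed letters in capitals and the spacer in lower case. CANX, which has 4 windows with different starts, holds the same match in 3 of them. HSP90B1 holds 2 different matches in its window, and HYOU1 holds the same ERSE-II match at 2 places in its window.
HSPA5 (ERSE): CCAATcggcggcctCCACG
HSP90B1 (ERSE): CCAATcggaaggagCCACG
HSP90B1 (ERSE): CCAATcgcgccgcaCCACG
CALR (ERSE): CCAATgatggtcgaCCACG
CANX (ERSE): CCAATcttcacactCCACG
PDIA6 (ERSE): CCAATgagccgcagCCACG
XBP1 (ERSE): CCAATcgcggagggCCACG
CRELD2 (ERSE): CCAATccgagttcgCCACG
HYOU1 (ERSE-II): ATTGGaCCACG
HERPUD1 (ERSE-II): ATTGGgCCACG
SDF2L1 (ERSE-II): ATTGGtCCACG

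The counts on genes came to 34884501 in the CCE library and 5633569 in the control library, so that 1 count was worth 0.0283 CPM (counts per 1000000 after scaling) in the CCE library and 0.180 CPM in the control library. Counts were scaled by library size with TMM factors. Ratios are CCE over control and carry an exact 95% Clopper-Pearson interval for counting error, which holds nothing of the spread between cultures. With 1 library per group no test was possible and no p-value is given, and every value below describes these 2 libraries. Of 6 genes expected in MDA-MB-231, all were present, at 158 to 1801 CPM in the CCE library and 339 to 3739 CPM in the control library. Of 7 genes expected to be low or absent, none passed 51.8 CPM in the CCE library or 55.4 CPM in the control library, with ESR1 and FOXA1 at 0 counts in both. Of 5 markers of other cell types 4 were matched, and none passed 0.481 CPM in the CCE library or 1.26 CPM in the control library.

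The ER genes differed little between the libraries. All 33 had a mean of at least 1 CPM, the minimum for a measured gene. A call required a ratio past 1.5-fold with an interval that left out no change. By this rule 2 members, EDEM2 and EDEM3, were higher in the CCE library, where 12.1% of the 14424 measured genes were. CRELD2 alone was lower, where 11.3% of measured genes were. At a 2-fold limit EDEM2 was the only call among members (4.36% of measured genes were called higher and 4.92% lower). The other members stayed within 1.5-fold, except for TXNDC5, whose interval included no change. The median log2 ratio was 0.18 over the members and 0.05 over all measured genes, and the quartiles were 0.01 and 0.34 for members and -0.31 and 0.38 for all measured genes.

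Small differences in 1 direction prevailed in the counts. A log2 ratio above 0 was found in 25 of 33 members, against 53.9% of measured genes. The interval lay wholly above no change in 17 members (30.1% of measured genes), wholly below it in 6 (25.1%), and included it in 10. Intervals are narrower for abundant genes, and for the protein-coding genes above a mean of 5 CPM the shares were 35.4% above and 27.9% below. Together the members took 0.807% of the counts on genes in the CCE library (interval 0.804% to 0.810%) and 0.695% in the control library (0.689% to 0.702%). CANX, HSPA5, HSP90B1 and VCP supplied 52.1% of the members' counts in the CCE library and 49.2% in the control library. Scaled counts are shares of a library, so they show neither the number of cells nor the amount of RNA per cell.

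**Figure D1:**
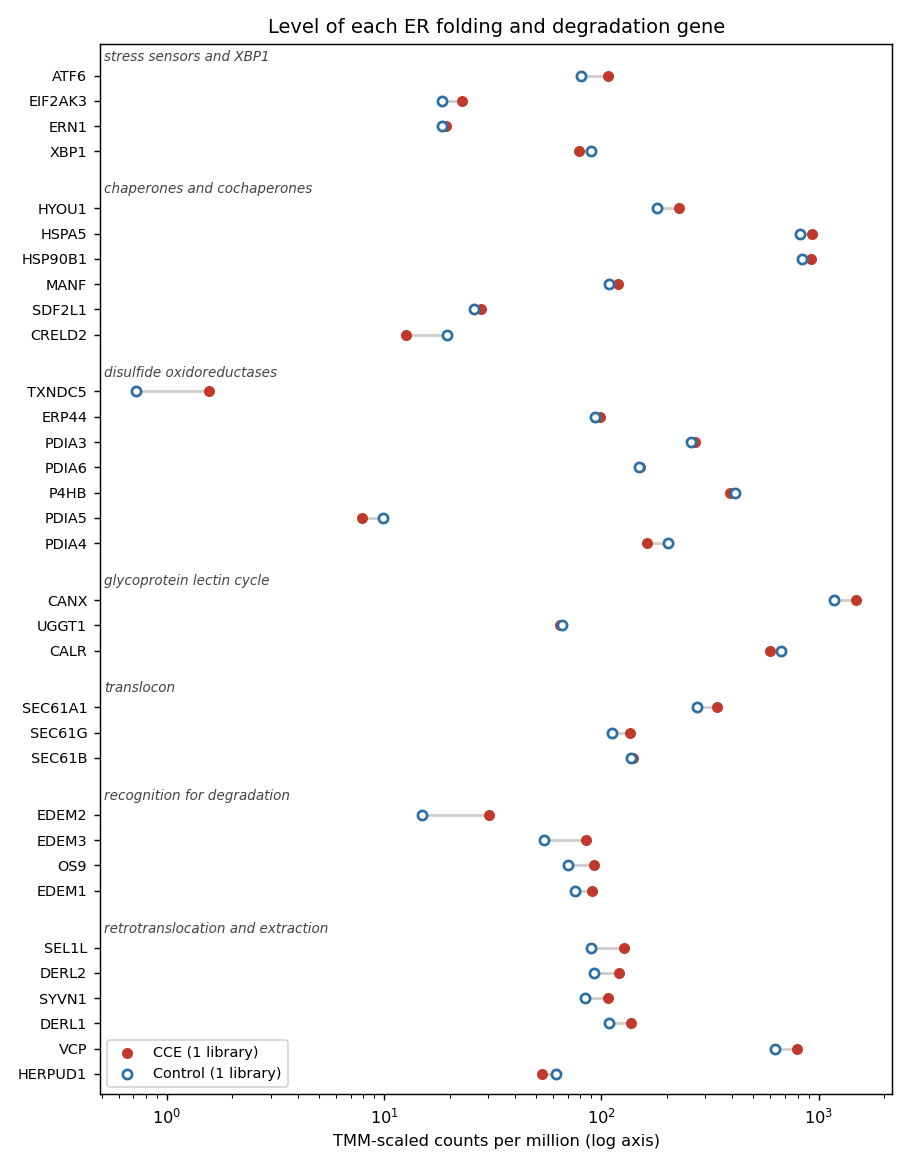
Level of each of the 33 genes in the CCE library (filled) and the control library (open) in CPM after TMM scaling, on a log axis, grouped by role. Levels run from 1.56 CPM in CCE and 0.719 CPM in control for TXNDC5 to 1494 and 1177 CPM for CANX, and most pairs of points nearly touch.

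The genes of the 3 sensors and of XBP1 gave no common direction. ATF6, a membrane-bound transcription factor freed by proteolysis in the Golgi, had 3809 counts in the CCE library and 447 in the control library, which is 108 and 80.4 CPM. This was 1.34-fold higher (1.22 to 1.48), at a log2 ratio of 0.42. EIF2AK3, the kinase PERK that slows translation, had 803 counts (22.7 CPM) in the CCE library and 103 (18.5 CPM) in the control library, a log2 ratio of 0.29 whose interval, -0.0029 to 0.60, just included 0. ERN1, the kinase and endoribonuclease IRE1 that splices XBP1 mRNA, had 680 and 103 counts, at 19.2 CPM in CCE and 18.5 CPM in control. Its log2 ratio of 0.05 (-0.25 to 0.37) showed no difference that this depth could detect. XBP1 had 2780 counts (78.7 CPM) in the CCE library and 500 (89.9 CPM) in the control library, a log2 ratio of -0.19 (-0.33 to -0.05), so that it was slightly lower by counts. By FPKM the log2 ratio of XBP1 was 0.47. EIF2AK3 had 3.68 FPKM in the CCE library and 0.157 FPKM in the control library, a log2(FPKM + 1) ratio of 2.01, and ERN1 had 1.98 and 4.58 FPKM, a log2(FPKM + 1) ratio of -0.91 against the 0.05 from counts. Counts per gene do not separate the spliced from the unspliced form of XBP1, and splicing was not analysed here.

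Among the chaperones, 4 of 6 had an interval above no change (30.1% of measured genes) and 1 an interval below it (25.1%). HSPA5, on chromosome 9, had 32987 counts in the CCE library and 4576 in the control library. Its level was 933 CPM in CCE and 823 CPM in control, 1.13-fold higher (1.10 to 1.17). HSP90B1, the ER form of HSP90 also called GRP94, had 32693 and 4649 counts, 925 CPM in CCE and 836 CPM in control, 1.11-fold higher (1.07 to 1.14). For both, the whole counting interval lay under 1.2-fold. HYOU1, a large HSP70 relative that exchanges nucleotide on BiP, had 228 CPM in the CCE library and 179 CPM in the control library and was 1.27-fold higher (1.19 to 1.36). MANF, a small secreted protein that binds BiP, had 119 CPM in CCE and 108 CPM in control, 1.10-fold higher (1.01 to 1.20). SDF2L1, which works with an ER cochaperone to keep clients soluble, had 986 counts in CCE and 144 in control and a log2 ratio of 0.11 (-0.15 to 0.37). The 5 chaperones above 0 all differed by under 1.3-fold. By the deposited FPKM values HSP90B1 alone of these 5 lay above 0.

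CRELD2, an ER protein with disulfide isomerase activity that is known as an ER stress-inducible gene, went the other way. It had 447 counts in the CCE library and 108 in the control library, at 12.6 and 19.4 CPM. The log2 ratio was -0.62 (-0.93 to -0.30), or 1.54 times lower. CRELD2 lies on chromosome 22, and 168 bases of its exons overlap ALG12 on the opposite strand. ALG12, a mannosyltransferase of N-glycan assembly, had 690 counts in CCE and 134 in control and a log2 ratio of -0.30 (-0.57 to -0.03). No source used here gives the strand setting of the counting, so reads of the shared bases may belong to either gene. With total-count scaling CRELD2 no longer passed 1.5-fold, leaving 0 members called lower.

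The disulfide oxidoreductases were nearly level. Of 7 genes, 0 had an interval above no change (30.1% of measured genes) and 2 had an interval below it (25.1%). P4HB, the founding protein disulfide isomerase and the most abundant of the group per kilobase of transcript, had 13815 counts in CCE and 2284 in control. Its level was 391 CPM in CCE and 411 CPM in control, a log2 ratio of -0.07 (-0.14 to -0.01). PDIA4 was lower as well, with 162 CPM in the CCE library and 203 CPM in the control library and a log2 ratio of -0.33 (-0.42 to -0.23). PDIA3, the isomerase that works with calnexin and calreticulin, had 0.06 (-0.02 to 0.14), PDIA6 had 0.01 (-0.09 to 0.12) and ERP44, which retains unfinished proteins in the secretory path, had 0.08 (-0.05 to 0.22). PDIA3 has a processed pseudogene, PDIA3P1, with 737 counts in CCE and 83 in control, so reads shared between the copies make its count less certain. PDIA5, the least abundant of the group per kilobase after TXNDC5, had 280 and 55 counts, and its log2 ratio of -0.32 (-0.74 to 0.12) was not resolved at this depth.

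TXNDC5 could not be judged from the counts. It had 55 counts in the CCE library and 4 in the control library, and a log2 ratio of 1.11 with an interval from -0.32 to 3.04. By FPKM it was among the abundant members, at 107 in CCE and 125 in control. Of its exonic bases, 2658 also belong to the read-through gene BLOC1S5-TXNDC5 on the same strand, which had 0 counts in both libraries. Records that fell on more than 1 gene made up 1.36% of all records in the CCE library and 1.59% in the control library, and whether those of TXNDC5 are among them was not tested.

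By counts, the lectin cycle was split between its members. CANX, which encodes the membrane-bound lectin calnexin and had the most counts of all members, had 52799 counts in CCE and 6542 in control. Its level was 1494 CPM in the CCE library and 1177 CPM in the control library, 1.27-fold higher (1.24 to 1.30). CALR, the soluble lectin calreticulin and the most abundant of the 3 per kilobase of transcript, had 21087 and 3748 counts, at 597 CPM in CCE and 674 CPM in control. Its log2 ratio was -0.18 (-0.23 to -0.13), opposite in sign to that of CANX, and the intervals of the pair did not overlap. At such counts the intervals are narrow, and how often other pairs of genes differ in this way was not examined. By FPKM the signs were not opposite. CANX had 204 FPKM in CCE and 205 FPKM in control, a log2(FPKM + 1) ratio of -0.0072, and CALR had -0.43. UGGT1, the glucosyltransferase that returns unfolded glycoproteins to the lectins, had 64.8 CPM in the CCE library and 65.8 CPM in the control library, with a log2 ratio of -0.02 (-0.18 to 0.14).

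The 3 subunits of the SEC61 channel had log2 ratios from 0.04 to 0.31. SEC61A1, the pore, had 340 CPM in the CCE library and 275 CPM in the control library and was 1.24-fold higher (1.17 to 1.31). SEC61G had 136 CPM in CCE and 112 CPM in control, 1.21-fold higher (1.12 to 1.32). Its FPKM values went the other way, at 16.1 in CCE and 43.8 in control, a log2(FPKM + 1) ratio of -1.39. SEC61B had 140 and 137 CPM, with a log2 ratio of 0.04 (-0.07 to 0.15). Per kilobase of the canonical transcript the order was SEC61G at 320 CPM in CCE and 264 in control, then SEC61B at 249 and 242, then SEC61A1 at 95.4 and 77.1.

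All 4 genes of proteins that recognise glycoproteins for degradation had an interval above no change, against 30.1% of measured genes. EDEM2, an alpha-mannosidase that takes the first mannose from the glycans of misfolded proteins, had 1073 counts in the CCE library and 83 in the control library. Its level was 30.4 CPM in CCE and 14.9 CPM in control, 2.03-fold higher (1.63 to 2.57). EDEM3, a mannosidase that acts after EDEM2, had 3007 and 304 counts, 85.1 CPM in CCE and 54.7 CPM in control, 1.56-fold higher (1.38 to 1.76). OS9, a lectin that reads the trimmed glycan, had 92.3 CPM in the CCE library and 70.0 CPM in the control library, a log2 ratio of 0.40 (0.25 to 0.56). EDEM1 had 90.1 CPM in CCE and 75.7 CPM in control, 0.25 (0.10 to 0.40). Centred on genes of similar expression, EDEM3 had 0.53 and no longer passed 1.5-fold, which left EDEM2 as the only member called higher. Per kilobase of the canonical transcript OS9 was the most abundant of the 4, at 34.4 CPM in CCE and 26.1 CPM in control. OS9 shares 1378 exonic bases with AGAP2-AS1 on the same strand. By FPKM EDEM2 and EDEM3 lay above 0, while EDEM1 at -0.02 and OS9 at -0.72 lay below 0.

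EDEM2 is on chromosome 20, from 33703167 to 33735139 (GRCh37), and its exons overlap no other counted gene in the annotation used here. RefSeq also lists a read-through gene, MMP24-AS1-EDEM2, across it. The upstream gene MMP24OS had 6581 counts in CCE and 633 in control and a log2 ratio of 0.71 (0.59 to 0.83), so its direction was that of EDEM2. No source used here says how the authors' annotation divided reads between the pair. By FPKM the log2 ratio of EDEM2 was 0.35, with 6.81 in CCE and 5.14 in control. EDEM3 is on chromosome 1, from 184659371 to 184724041, and had 1.85 FPKM in the CCE library but was listed at 0 FPKM in the control.

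In the retrotranslocation complex 5 of 6 genes had an interval above no change (30.1% of measured genes) and HERPUD1 had one below it (25.1%). By FPKM SEL1L and SYVN1 alone of the 6 lay above 0. SEL1L, the adaptor of the ubiquitin ligase, had 4505 counts in CCE and 496 in control, at 127 and 89.2 CPM, and was 1.43-fold higher (1.30 to 1.57). SYVN1, the ligase HRD1 itself, had 107 CPM in CCE and 84.3 CPM in control, 1.27-fold higher (1.16 to 1.40). DERL1 and DERL2, the derlins of the exit channel, had log2 ratios of 0.34 (0.22 to 0.46) and 0.38 (0.25 to 0.51). VCP, the ATPase that extracts substrates and the most abundant of the group per kilobase, had 28092 counts in CCE and 3503 in control. Its level was 795 CPM in CCE and 630 CPM in control, 1.26-fold higher (1.22 to 1.31). HERPUD1, a membrane scaffold of the ligase complex that is strongly induced by ER stress in many cells, had 1887 and 344 counts, at 53.4 CPM in CCE and 61.9 CPM in control, with a log2 ratio of -0.21 (-0.38 to -0.04).

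**Figure D2:**
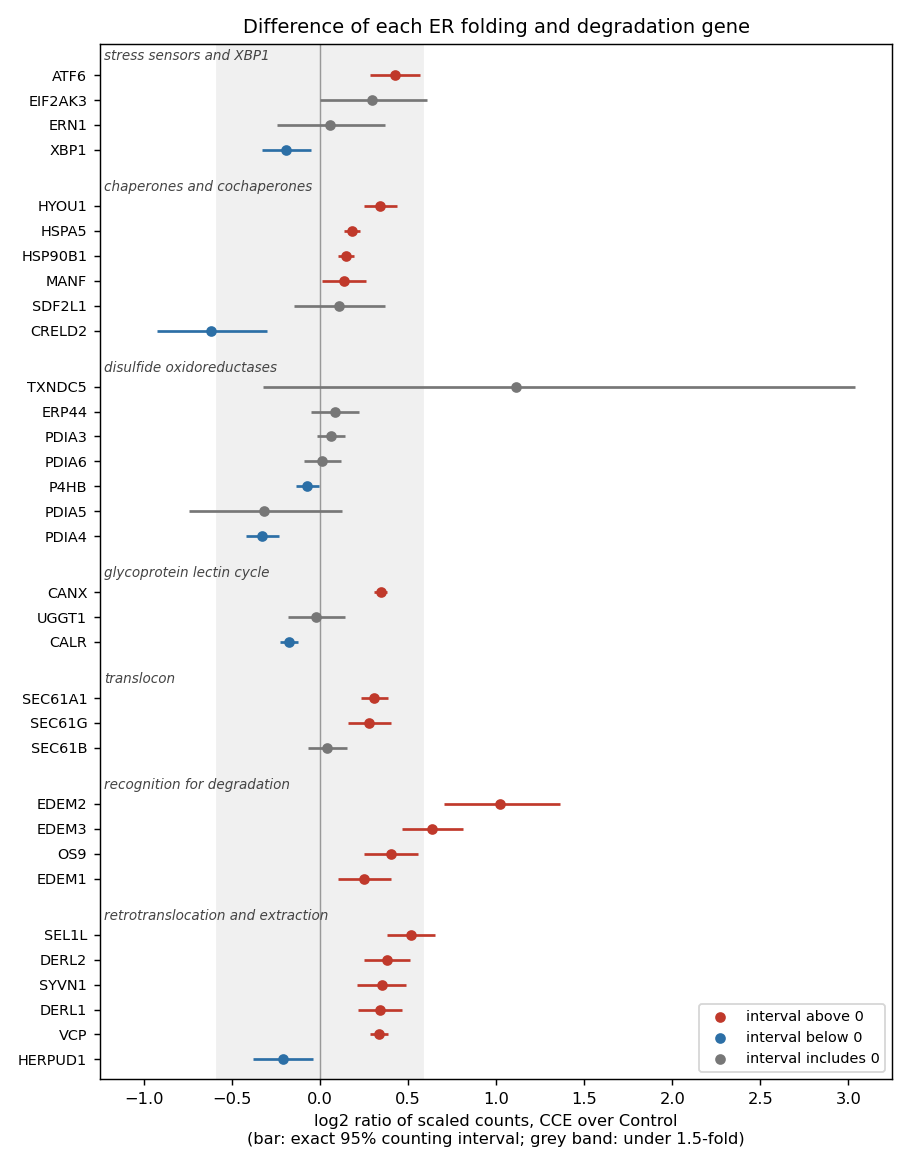
Log2 ratios from scaled counts (CCE over control) for each of the 33 genes by role, with exact 95% counting intervals; the grey band spans ratios under 1.5-fold. EDEM2 at 1.02, EDEM3 at 0.64 and CRELD2 at -0.62 lie outside the band with intervals that exclude 0, and TXNDC5 at 1.11 has an interval that includes 0.

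Grouped after these values were seen, the 10 degradation genes had a median log2 ratio of 0.36. Of these, 9 of 10 had an interval above no change, against 30.1% of measured genes. The 16 folding genes (chaperones, oxidoreductases and lectin cycle) had a median of 0.07, with 5 intervals above no change and 4 below it. Over the genes whose exons overlap no other counted gene, the medians were 0.51 for 5 degradation genes and 0.10 for 6 folding genes. By the deposited FPKM values both medians were below 0. They were -0.05 for the degradation genes, of which 4 of 10 lay above 0, and -0.20 for the folding genes, of which 2 of 16 did. The order of these 2 FPKM medians did not hold for each role. Retrotranslocation had an FPKM median of -0.187 and recognition 0.166, while chaperones had -0.105, the lectin cycle -0.0072 and oxidoreductases -0.285. The canonical transcripts had a median length of 3479.5 bases in the degradation genes and 2774.5 bases in the folding genes. Across the 33 members, which share their 2 libraries, the count ratio went with that length at a Spearman's rho of 0.40, against 0.09 over 14093 measured genes with a length, and the part of length in the split was not tested. With 1 library per group the difference between the groups of genes was not tested.

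Over members of all roles, those that carry an ER stress element in a promoter window had a lower median ratio than the others. The 10 members with ERSE or ERSE-II had a median log2 ratio of 0.06 and a range from -0.62 to 0.34. Of these 10, 4 had an interval above no change, 4 had one below it, and CRELD2 was the only call. The 21 members with windows but neither motif had a median of 0.29, with 12 intervals above no change, 2 below it, and the 2 calls EDEM2 and EDEM3. By FPKM the medians were closer, at -0.14 with 2 of 10 above 0 for the members with either motif and -0.07 with 9 of 21 above 0 for those with neither. Of the members with either motif, HERPUD1 alone is a degradation gene and XBP1 stands with the sensors. The others are folding genes, so this contrast overlaps the split of folding and degradation genes. Within the folding genes with windows, the lower median of the members with a motif was not seen. Those with neither motif were PDIA4 at -0.33, PDIA5 at -0.32, P4HB at -0.07, UGGT1 at -0.02, ERP44 at 0.08, MANF at 0.14 and TXNDC5 at 1.11. Those with a motif were CRELD2 at -0.62, CALR at -0.18, PDIA6 at 0.01, SDF2L1 at 0.11, HSP90B1 at 0.15, HSPA5 at 0.18, and HYOU1 and CANX at 0.34. The contrast within a role was not tested. Outside the members, 20 measured genes carried either motif, with a median of -0.02, of which 1 was called higher and 4 lower. They are not all separate genes in position: ALG12 shares 168 exonic bases with CRELD2, and SERP1 shares 252 with EIF2A, each on opposite strands. The 10118 other measured genes with windows and neither motif had a median of 0.06, and 11.8% of them were called higher and 10.6% lower. The windows of the gene of BiP, of the lowest member and of the highest called member are printed from 5′ to 3′ in the direction of the gene, with the fixed letters of ERSE in capitals. They are at chr9:125241294-125241593 on the minus strand for HSPA5, chr22:49918384-49918683 on the plus strand for CRELD2 and chr20:35147287-35147586 on the minus strand for EDEM2 (GRCh38.p14). In the CRELD2 window the match reads on the opposite strand, so its letters appear there as CGTGG and ATTGG.
HSPA5: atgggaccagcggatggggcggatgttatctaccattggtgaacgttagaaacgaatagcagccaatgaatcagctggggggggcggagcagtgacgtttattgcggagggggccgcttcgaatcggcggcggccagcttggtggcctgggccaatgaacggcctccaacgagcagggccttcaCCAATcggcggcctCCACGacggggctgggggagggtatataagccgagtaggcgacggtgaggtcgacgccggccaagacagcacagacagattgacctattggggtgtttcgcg
CRELD2: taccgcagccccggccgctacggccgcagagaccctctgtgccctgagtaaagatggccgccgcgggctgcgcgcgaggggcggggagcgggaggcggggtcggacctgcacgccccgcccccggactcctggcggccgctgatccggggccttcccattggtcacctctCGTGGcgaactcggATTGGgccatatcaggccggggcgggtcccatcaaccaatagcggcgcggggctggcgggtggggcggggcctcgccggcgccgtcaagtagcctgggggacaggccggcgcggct
EDEM2: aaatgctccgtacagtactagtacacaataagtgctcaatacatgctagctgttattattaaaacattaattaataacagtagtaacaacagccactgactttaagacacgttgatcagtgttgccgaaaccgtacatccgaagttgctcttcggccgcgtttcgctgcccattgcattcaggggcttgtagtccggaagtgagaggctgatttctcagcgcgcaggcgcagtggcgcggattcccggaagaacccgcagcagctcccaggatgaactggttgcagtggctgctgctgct
The HSPA5 window has 5 CCAAT boxes over both strands and 1 full ERSE, the CRELD2 window has 3 CCAAT boxes and 1 ERSE, and the EDEM2 window has 0 CCAAT boxes. Their GC contents are 61.3%, 75% and 49.7%. No motif match in a window says only that these letters are not there.

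**Figure D3:**
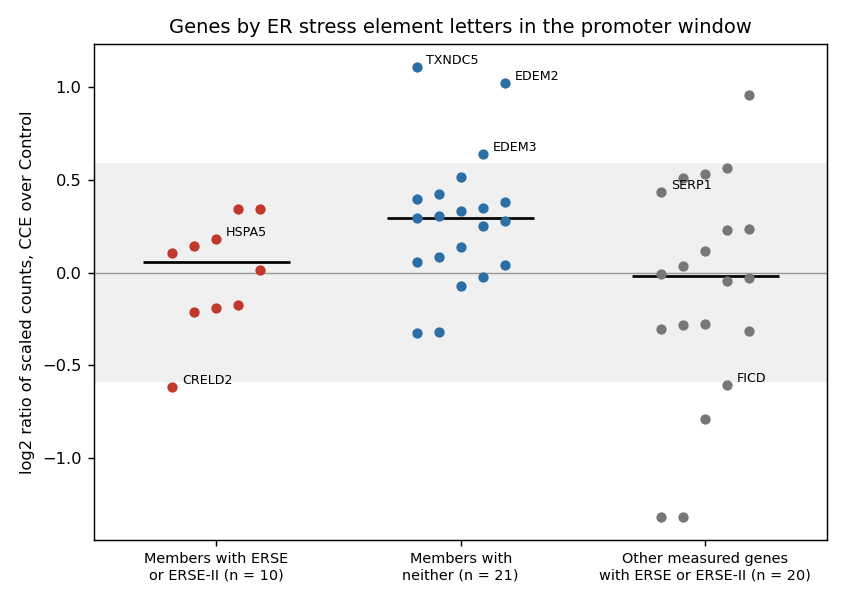
Log2 ratios from scaled counts (CCE over control) for the 10 members with ERSE or ERSE-II in a promoter window, the 21 members with neither, and 20 other measured genes with either motif; horizontal bars are medians and the grey band spans ratios under 1.5-fold. The medians are 0.06, 0.29 and -0.02, and the point clouds overlap.

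Few other genes of these pathways were called. Of 123 genes in 6 lists, 117 were measured, 10 were called higher (12.1% of measured genes were) and 0 lower (11.3%), with a median log2 ratio of 0.15. ER cochaperones and nucleotide exchange factors were the list with the highest median, 0.39: all 10 had ratios above 0 and 3 were called higher. These were CDNF, a relative of MANF, at 126 counts in CCE and 9 in control and a log2 ratio of 1.14 (0.17 to 2.30), DNAJC25 at 0.88 (0.65 to 1.12), and DNAJB9, a BiP cochaperone that holds IRE1 inactive, at 0.69. DNAJC25 shares 358 exonic bases with a read-through gene. By FPKM with a pseudocount of 1 the median of this list was 0.018. DNAJC10, SIL1, SDF2 and SEC63 lay below 0 by that measure and the others above 0. CDNF was listed at only 5.6e-05 FPKM in the CCE library and 0 FPKM in the control library.

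Of 28 measured genes of the list of other degradation factors, 5 were called higher (12.1% of measured genes were), and the median was 0.22. The interval lay above no change in 15 (30.1% of measured genes) and below it in 2 (25.1%). Those 2 were BAG6 at -0.28 (-0.34 to -0.21) and RNF5 at -0.33 (-0.44 to -0.22), of which BAG6 lay above 0 by FPKM. RHBDD1, a rhomboid protease of the ER membrane, had 1019 counts in the CCE library and 74 in the control library and was 2.17-fold higher (1.71 to 2.78). FAM8A1, a partner of the SYVN1 complex, was 1.84-fold higher (1.45 to 2.38). FAF2, which recruits VCP to the membrane, had 159 CPM in CCE and 88.8 CPM in control and was 1.79-fold higher (1.63 to 1.96). By FPKM RHBDD1, FAM8A1 and FAF2 also had ratios above 0, while the FPKM median of the list was below 0.

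The list of outputs and partners of the 3 sensor branches had a median of 0.08 over 22 measured genes, with 1 called higher. That gene was ATF6B, the paralog of ATF6, with 1093 counts in CCE and 84 in control, 2.05-fold higher (1.64 to 2.59). The stress transcription factor gene DDIT3, which encodes CHOP, had 106 CPM in the CCE library and 71.2 CPM in the control library, 1.49-fold higher (1.34 to 1.65). TRIB3, a pseudokinase gene downstream of CHOP, was 1.48-fold higher (1.36 to 1.62). DDIT3 and TRIB3 lay just under the 1.5-fold limit and were above 0 by FPKM as well. In the whole list the interval lay above no change in 11 genes (30.1% of measured genes) and below it in 3 (25.1%). The 3 below were CREB3L2 at -0.50, KDELR1 at -0.32 and NFYA at -0.22, of which CREB3L2 and NFYA lay above 0 by FPKM. ATF4 had a log2 ratio of -0.04 (-0.10 to 0.03). DDIT3 shares 355 exonic bases with MARS1 on the opposite strand.

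The remaining lists held 1 call among 57 measured genes. It was FKBP14, a prolyl isomerase that acts on collagen, among 19 measured thiol oxidoreductases and prolyl isomerases (median 0.06), at 40.9 CPM in CCE and 21.2 CPM in control and 1.93-fold higher (1.60 to 2.35). ERO1B, which oxidises protein disulfide isomerase, had a log2 ratio of 0.57 (0.05 to 1.12) and TMX3 of 0.50 (0.34 to 0.66). The list of N-glycosylation and glycan trimming had a median of 0.18 over 17 genes, with the oligosaccharyltransferase subunit genes TUSC3 at 0.46 (0.29 to 0.63) and OST4 at 0.42 (0.28 to 0.57) and PRKCSH, of glucosidase II, at -0.42 (-0.49 to -0.34). Translocation and signal peptide cleavage had a median of 0.05 over 21 genes. There SRP54 had 0.50 (0.34 to 0.66), while SRP9, also of the signal recognition particle, had -0.46 (-0.55 to -0.37) and the signal peptidase gene SPCS2 had -0.44 (-0.58 to -0.29). TMX3 and TUSC3 lay below 0 by FPKM and SPCS2 above 0.

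The deposited FPKM values, whose depth is unknown, gave another picture of the members. Rows were summed per gene and compared on the log2(FPKM + 1) scale, which understates differences of low genes. The sign was that of the counts in 15 of 33 members, and the median was -0.10 over members and 0 over all measured genes. Across the 33 members, which share their 2 libraries, Spearman's rho between the count and FPKM ratios was 0.24. By FPKM 11 members lay above 0, against 41.5% of measured genes, 5 members passed 1.5-fold upwards (21.2% of measured genes) and 5 downwards (24.1%). SYVN1 had 31.2 FPKM in the CCE library and 2.75 FPKM in the control library, a log2 ratio of 3.10, where counts gave 0.35. DERL2 had 10.2 FPKM in CCE and 48.1 FPKM in control, a log2 ratio of -2.14, where counts gave 0.38. For UGGT1 and EDEM3 the control library is listed at 0 FPKM, although it held 366 and 304 counts of them. These are 2 of 33 members, where 24.2% of measured genes are listed at 0 FPKM in the control library. Of the 3 members called by counts, EDEM3 alone passed 1.5-fold by FPKM, at 1.51, while EDEM2 at 0.35 and CRELD2 at -0.41 had the same sign as by counts but did not pass. The others past 1.5-fold upwards were SEL1L, UGGT1, EIF2AK3 and SYVN1, and those past it downwards were DERL2, ERP44, SEC61G, ERN1 and OS9. HSPA5 had 180 FPKM in CCE and 263 FPKM in control, a log2 ratio of -0.55, opposite to its counts.

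**Figure D4:**
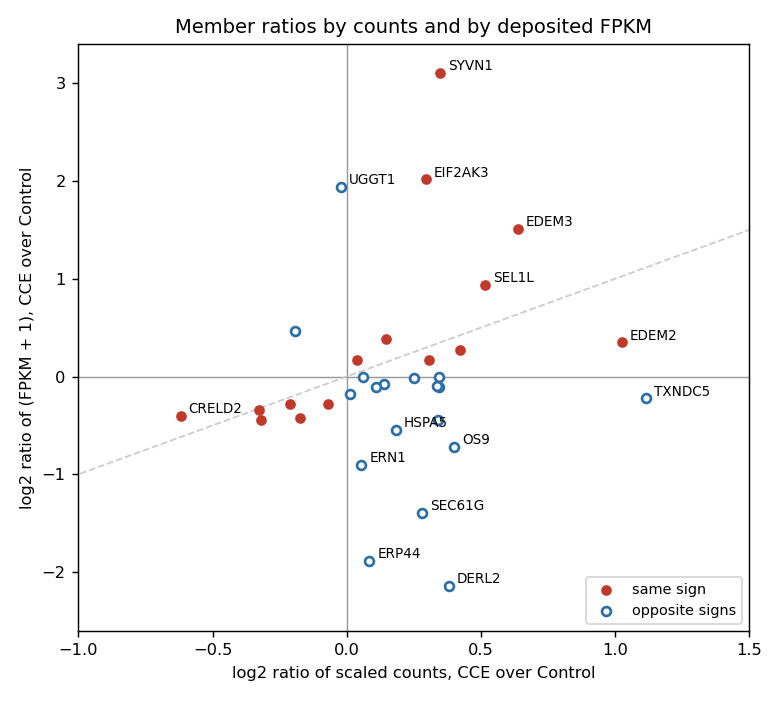
Log2 ratio from scaled counts (x) against the log2 ratio of deposited FPKM + 1 (y), both CCE over control, for the 33 genes; the dashed line marks equal ratios. Filled points have the same sign by both measures (15 genes) and open points opposite signs (18), with SYVN1 at 3.10 and DERL2 at -2.14 the farthest from 0 by FPKM.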

How the data were processed

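The authors deposited raw counts per Ensembl gene and FPKM values, each for 1 CCE and 1 control library; the processing notes of the submitters name HISAT2, hg19 and GRCh37. No source used here names the counting program, its strand setting, the annotation or how the authors computed FPKM. The count tables have 5 rows each that belong to no gene. They were left out and held 66.8% of records in the CCE library and 62.9% in the control library. Alignments that were not unique made up 17.3% of records in the CCE library and 11.6% in the control library. Records on no feature made up 33.9% and 38.0%. Symbols and positions came from GENCODE release 44 lifted to GRCh37, where 55665 of the IDs matched and 8012 did not.

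Counts were scaled with TMM factors (edgeR 4.0.16 in R 4.3.3; 1.01 for CCE, 0.987 for control), and log2 ratios of scaled counts were taken with no pseudocount. Intervals are Clopper-Pearson intervals (scipy 1.17.1) on the CCE library's share of each gene's counts. PCR copies are not independent molecules, so they cover counting error only. Genes with a mean of 1 CPM or more counted as measured. Levels between genes were compared per kilobase of the Ensembl canonical transcript. The calculation was tested on simulated data.

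Alternatives were scaling by total counts, by the upper quartile or with DESeq2 1.42.0, FPKM with pseudocounts of 1 and 0.1, no filter or a mean of 5 CPM, centring within 10 bins of expression, members without exon overlap, and other thresholds; leaving out TXNDC5 was added after its values were seen. The members, roles, pathway lists and rules were chosen with earlier results of these data known. Every member is accounted for, with full values for members past 1.5-fold, for sensors and chaperones and for the most abundant of each other role. Of each pathway list up to 3 measured genes with the largest absolute log2 ratio and an interval excluding 0 are named. Promoter motifs were chosen after the members' ratios were seen, and other named genes after their values were seen.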

Additional observations from a re-analysis of the deposited data

How the results depend on the processing

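No paired analysis was possible because each group has 1 library, and for the same reason no library could be left out. The 2 members called higher remained 2 in number under the 3 other scalings, with no count filter, at a mean of 5 CPM, over the 15 members without exon overlap and without TXNDC5. They were 3, TXNDC5 included, with no interval required, 5 by FPKM with a pseudocount of 1 and 5 with 0.1, 1 after centring within 10 bins of expression, 1 at 2-fold and 1 when the whole interval had to pass 1.5-fold. The 1 member called lower became 0 with total-count scaling, over members without exon overlap, at 2-fold and when the whole interval had to pass 1.5-fold; by FPKM CRELD2 did not pass, and 5 other members did with a pseudocount of 1 and 6 with 0.1. EDEM2 did not pass by FPKM either. The member median stayed between 0.11 and 0.22 in the count-based alternatives and was -0.10 and -0.11 by FPKM with pseudocounts of 1 and 0.1. Members above 0 numbered 25 as reported, 26 with total-count scaling, 23 with the upper quartile, 24 at a mean of 5 CPM, 22 after centring, 11 of 33 by FPKM at either pseudocount and 11 of 15 without exon overlap. Of the pathway genes 10 were called higher and 0 lower, while by FPKM 21 passed 1.5-fold upwards at either pseudocount and 25 and 28 downwards with pseudocounts of 1 and 0.1. FPKM medians with pseudocounts of 1 and 0.1 turned negative for thiol oxidoreductases and prolyl isomerases (-0.22 and -0.23), N-glycosylation (-0.040 and -0.056), other degradation factors (-0.13 and -0.14) and sensor outputs (-0.0047 and -0.0022). The cause was not tested. Scaling moved every ratio by at most 0.04 up (total counts) and by -0.04 (upper quartile), which changed the sign of UGGT1 under total counts and of PDIA6 and SEC61B under the upper quartile. The shallower control library limits precision: PDIA5 and TXNDC5, with 55 and 4 control counts, could not be resolved.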

Other observations

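Beyond the members, 20 measured genes carried ERSE or ERSE-II in a RefSeq promoter window, and they did not share a direction. FICD, whose enzyme adds AMP to BiP and removes it, had 652 counts in the CCE library and 156 in the control library, a log2 ratio of -0.60 (-0.86 to -0.34). NUCB1, a Golgi calcium-binding protein gene, had -0.28 (-0.43 to -0.13), while SERP1, which stabilises membrane proteins at the translocon, had 4855 counts in CCE and 564 in control, a log2 ratio of 0.44 (0.31 to 0.57). These genes were chosen after their values were seen.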
